A study of Gallus gallus with 3 samples.

Results

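The genes described here belong to the TALE class of homeobox genes, which includes cofactors of HOX proteins. They are MEIS1, MEIS2, PBX3, PKNOX1 and TGIF1, and they were taken as every probe set whose platform gene symbol is 1 of these names. That gave 8 probe sets for 5 genes, of 13008 named genes on the Affymetrix Chicken Genome Array. A probe set is a group of short probes on the array that together give 1 signal for a transcript. The series holds 3 arrays, with 1 pool of chick endoderm on each. Foregut endoderm, from in front of the anterior intestinal portal, came from Hamburger-Hamilton stages 10 to 11. Mid/hindgut endoderm, from behind the presumptive small intestine, came from stages 8 to 10. Early endoderm was all of the definitive endoderm of 500 embryos at stages 4 to 5. No treatment or genotype separates the pools, but the later pools spent 30 minutes in 0.03% collagenase to remove mesenchyme, whereas early endoderm was dissected with a needle. Stage, position and dissection therefore cannot be told apart, and with n = 1 per tissue no difference has a replicate check, a standard error or a p-value.

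TALE proteins carry a homeodomain with an extra loop of amino acids. PBX proteins bind DNA together with HOX proteins and sharpen their choice of site. MEIS proteins and PKNOX proteins, also called PREP, bind PBX at the same surface, help to keep it in the nucleus and can form larger complexes with HOX. TGIF proteins are repressors that act on SMAD complexes of the Nodal and TGF-beta pathway and on retinoid-responsive genes. In vertebrate embryos MEIS genes are known from retinoic acid responses, limb, hindbrain and blood vessel development, so they are not specific to endoderm.

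Signals below are on the linear scale deposited by the authors, after each array was scaled to a common trimmed mean by factors of 1.09 in foregut, 1.06 in mid/hindgut and 0.881 in early endoderm. A floor of 22.1 signal units stands for the lower limit of measurement, and a fold against a signal below it is written "at least". Viral probe sets, which were assumed to have no target in the embryo, lay above the floor in 2.76% of cases in foregut, 2.18% in mid/hindgut and 1.31% in early endoderm. On each array 0.145% of them were at least as bright as TGIF1, the brightest member, so the assumption need not hold for all. A log2 difference of 1 is 2-fold. As a measure of probe noise, paired probe sets of 4134 genes had a technical standard deviation of 0.43 in log2 for foregut over early, 0.31 for mid/hindgut over early and 0.36 for foregut over mid/hindgut. It does not cover variation between pools. Among endoderm markers EPCAM, CDH1, FOXA2, SOX17 and HHEX were above the floor in all 3 tissues, while GATA4 was below it in all of them and FOXA1 in 2 of 3.

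All 8 member probe sets were above the floor in at least 1 tissue, and 6 of 8 were above it in foregut, with the other 2 those of PKNOX1. Of all chicken probe sets, 60.2% were above it in foregut, 60.8% in mid/hindgut and 58.9% in early endoderm. Both MEIS genes had their highest signal in foregut. PKNOX1 had its lowest there, by every probe set. PBX3 and TGIF1 differed by less than 2-fold in all 3 comparisons. Of the 5 genes, 2 were at least 2-fold higher and 1 was lower in foregut than in early endoderm, where 10.6% and 6.49% of 10800 measured genes were.

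**Figure D1:**
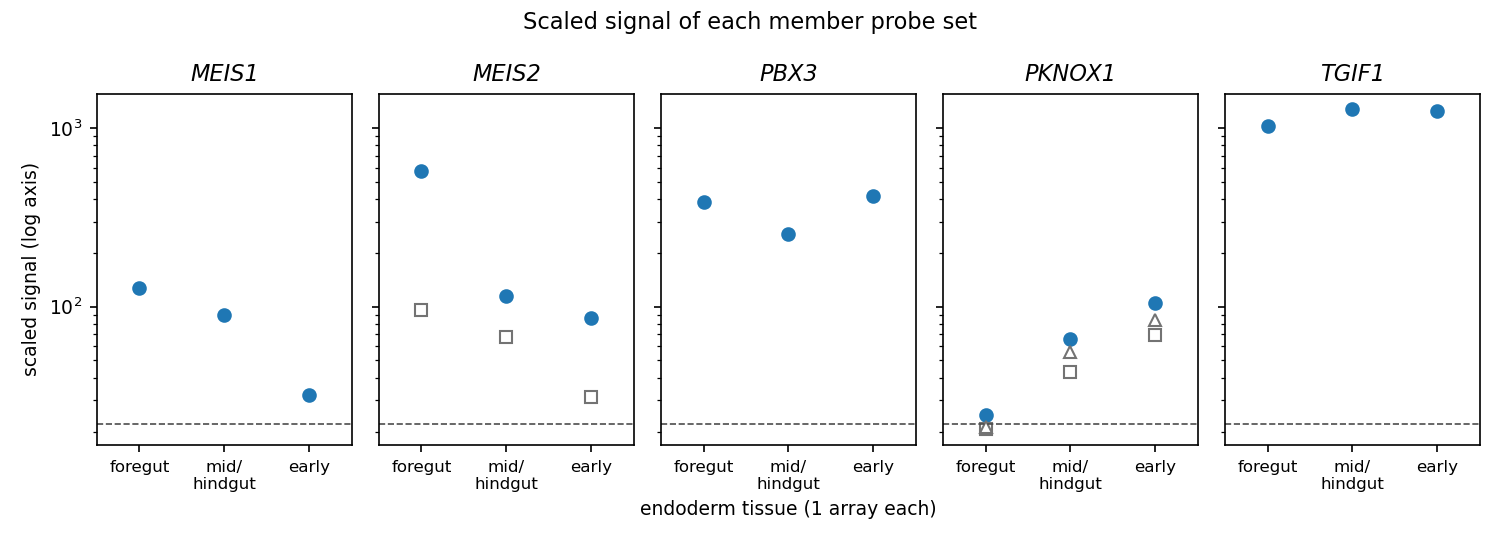
Scaled signal on a log axis of the 8 member probe sets in foregut, mid/hindgut and early endoderm, with 1 array per tissue. Filled circles are the probe set used for the gene, open symbols its other probe sets, and the dashed line is the floor of 22.1; MEIS2 reaches 576 in foregut and PKNOX1 lies near the floor there.

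MEIS1, which binds PBX and HOX proteins and is also known from blood and vessel precursors, had 1 probe set. Its signal was 128 in foregut, 90.2 in mid/hindgut and 32.1 in early endoderm. Both later tissues stood apart from early endoderm, where the signal was 1.45 times the floor. The log2 difference was 1.996 for foregut over early, 3.99-fold, and 1.49 for mid/hindgut over early, 2.81-fold. It was 0.50 for foregut over mid/hindgut, close to the technical standard deviation of 0.42 among genes of its level. Of 10800 measured genes, 275 had a higher log2 difference of foregut over early than MEIS1. A bulk signal cannot tell more expressing cells from more RNA per cell, and this holds for every member.

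MEIS2, a close relative of MEIS1 that responds to retinoic acid in several vertebrate tissues, had 2 probe sets. The brighter had a signal of 576 in foregut, 115 in mid/hindgut and 86.2 in early endoderm. Only foregut stood apart on it, with log2 differences of 2.74 over early endoderm, 6.68-fold, and 2.32 over mid/hindgut, 4.99-fold. Mid/hindgut over early was 0.42, or 1.34-fold. In foregut over early, 114 of 10800 measured genes had a higher log2 difference, and in foregut over mid/hindgut 85 of 10906 had.

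The other MEIS2 probe set gave 96.4 in foregut, 67.4 in mid/hindgut and 31.3 in early endoderm. On it both later tissues were higher than early endoderm, by 1.62 in log2 for foregut and 1.11 for mid/hindgut, while foregut over mid/hindgut was only 0.52. Its order of tissues was the same as on the brighter probe set, and its step between tissues was not. The difference between both probe sets was 1.12 in log2 for foregut over early and 1.80 for foregut over mid/hindgut. Among the 4134 genes with such a pair measured on every array, 7.38% had a gap at least as large in the first of these comparisons and 0.339% in the second. RefSeq lists 21 transcripts for chicken MEIS2. Which of them each probe set detects was not tested. The foregut signal of MEIS2 over mid/hindgut was therefore 1.43-fold or 4.99-fold higher by probe set, and over early endoderm 3.08-fold or 6.68-fold. These readings are not bounds. With scaling on hybridisation controls the brighter probe set gave 2.89 in log2 for foregut over mid/hindgut. By their names both probe sets were designed on the same sequence cluster, so they are not independent measurements.

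PKNOX1, which competes with MEIS proteins for PBX, had 3 probe sets, and all went the same way. The brightest had a signal of 24.7 in foregut, 66.0 in mid/hindgut and 104 in early endoderm. The next had 21.4, 56.0 and 84.5 in the same order of tissues, and the dimmest 20.7, 43.0 and 69.3. In foregut the signals stood at the floor, 2 of the 3 below it, and between 1.89% and 3.34% of viral probe sets had a signal as high. In mid/hindgut and early endoderm, at most 0.290% of viral probe sets did.

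Foregut over early was −2.08 in log2 on the brightest PKNOX1 probe set, 4.23-fold lower, and the others were at least 3.82-fold and at least 3.13-fold lower. Foregut over mid/hindgut was −1.42, 2.68-fold lower, with the others at least 2.53-fold and at least 1.94-fold lower. Mid/hindgut over early lay between −0.59 and −0.69 on the 3 probe sets, within 2-fold. Of 10800 measured genes, 155 had a lower log2 difference of foregut over early than PKNOX1. The next count takes all probe sets of a gene, and those below the floor on both arrays count as not past the fold. It is therefore not a share among measured probe sets, and does not show how rare the agreement of the 3 measured PKNOX1 probe sets is. Of 230 genes with 3 or more probe sets whose brightest was at least 2-fold lower in foregut than in early endoderm, 31, or 13.5%, had every probe set at least 2-fold lower, PKNOX1 among them. By their names 2 of the 3 PKNOX1 probe sets were designed on the same sequence cluster, so they are not 3 independent measurements.

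PBX3, the only PBX gene among the members, had 1 probe set, whose suffix marks it as shared between transcripts. Its signal was 385 in foregut, 256 in mid/hindgut and 419 in early endoderm. Mid/hindgut was lowest, at −0.71 in log2 relative to early endoderm, 1.64-fold, which exceeded the technical standard deviation of 0.28 at its level but not 2-fold. Foregut over mid/hindgut was 0.59. Foregut over early was −0.12, and 0.34 with scaling on hybridisation controls.

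TGIF1, a repressor of SMAD-driven transcription, had 1 probe set, with a signal of 1033 in foregut, 1272 in mid/hindgut and 1251 in early endoderm. The log2 difference was −0.28 for foregut over early and 0.02 for mid/hindgut over early, less than the technical standard deviation for genes of its level (0.36 and 0.22). Foregut over mid/hindgut was −0.30, against a technical standard deviation of 0.29, and 0.27 with scaling on hybridisation controls. The 3 tissues were not separated by TGIF1.

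In mid/hindgut over early endoderm, 1 of the 5 genes, MEIS1, was at least 2-fold higher and none was lower, with 8.12% of 10745 measured genes higher and 5.13% lower. In foregut over mid/hindgut, MEIS2 was higher and PKNOX1 lower, with 6.37% and 5.74% of 10906 measured genes past the same fold. The median log2 difference of the 5 genes was −0.12 for foregut over early, 0.02 for mid/hindgut over early and 0.50 for foregut over mid/hindgut, against 0.08, 0.03 and 0.02 over all measured genes. The members did not move as a group. At least 2-fold higher in foregut than in both other tissues were 338 of 10179 genes measured in all 3 comparisons, MEIS2 among them. At least 2-fold lower in foregut than in both were 240, PKNOX1 among them.

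**Figure D2:**
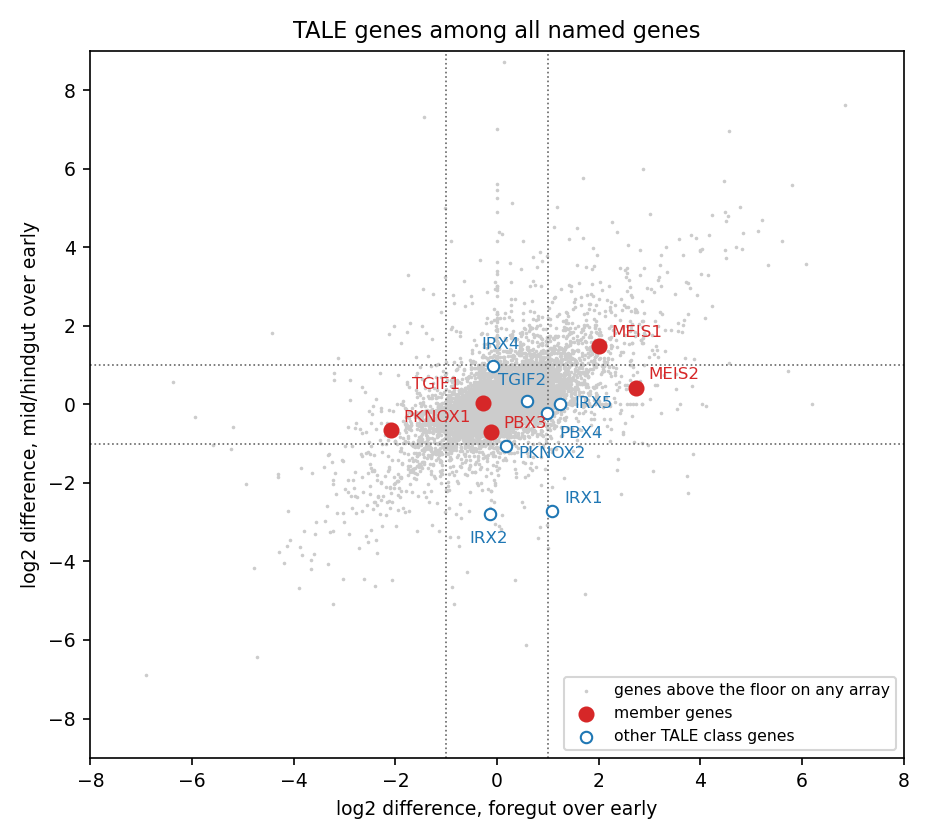
Log2 difference of foregut over early (horizontal) against mid/hindgut over early (vertical) for all named genes above the floor on any array (grey), the 5 member genes (red) and the other TALE class genes (open blue). Both axes share the early endoderm array, and dotted lines mark 2-fold; MEIS2 lies at 2.74 and 0.42, MEIS1 at 1.996 and 1.49, and PKNOX1 at −2.08 and −0.66.

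The ratio of members within an array does not depend on scaling by a single factor per array. MEIS2 relative to PKNOX1 was 28.2-fold higher in foregut than in early endoderm, a log2 difference of 4.82, and 13.4-fold higher in foregut than in mid/hindgut. Between mid/hindgut and early endoderm the same ratio differed by 2.11-fold. This pair had the widest difference of all member pairs in both comparisons with foregut, where PKNOX1 stood at the floor. Over the 11 alternatives of scaling, floor and probe set the first of these ranged from 11.5-fold to 28.3-fold and the second from 5.45-fold to 13.4-fold. No alternative used the other MEIS2 probe set by itself. On it foregut over mid/hindgut was 1.43-fold, against 4.99-fold on the brighter, so the second range does not bound the ratio from below. On the brighter MEIS2 probe set, MEIS1 minus MEIS2 was −0.74 in log2 for foregut over early and 1.07 for mid/hindgut over early. On the other MEIS2 probe set the differences from early endoderm, 1.62 and 1.11, were closer to those of MEIS1. How far the MEIS genes differed therefore depended on the probe set.

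Other TALE class genes on the array were PBX4, PKNOX2, TGIF2, IRX1, IRX2, IRX4, IRX5 and MKX. MEIS3, PBX2, IRX3 and IRX6 had no probe set under these names in the platform annotation and were not analysed here. MKX, known from tendon, was below the floor in all tissues. In foregut over mid/hindgut 5 of the 7 measured were at least 2-fold higher and IRX4 was lower, against 6.37% and 5.74% of all measured genes. The median of the 7 was 1.23. By the median over each gene's probe sets 2 of the 7 were higher, with 449 of 10919 genes, and the median was 0.70. In foregut over early 2 of 7 were higher and none lower, against 10.6% and 6.49% of all measured genes. In mid/hindgut over early none of 6 was higher and 3 were lower, against 8.12% and 5.13%. By the median over each gene's probe sets 2 of the 6 were lower there, with 407 of 10768 genes. Members and these genes share the homeodomain class but were listed with earlier results of these data in view.

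PBX4, a relative of PBX3, had 304 in foregut, 132 in mid/hindgut and 154 in early endoderm on its brightest of 3 probe sets. Foregut was highest on all 3, with log2 differences over mid/hindgut of 1.20, 0.46 and 0.70, so that 1 of the 3 passed 2-fold. Foregut over early was 0.98, 0.65 and 0.90. PBX3, in contrast, stood at −0.12 there, a gap of 1.10 in log2 between both PBX genes.

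PKNOX2 had 114 in foregut, 48.6 in mid/hindgut and 101 in early endoderm on its brightest probe set. Its foregut signal did not share the low value of PKNOX1: the log2 difference of PKNOX1 minus PKNOX2 was −2.26 for foregut over early and −2.65 for foregut over mid/hindgut. The PKNOX2 probe sets disagreed, however. Foregut over early was 0.17 on the brightest and 0.53 and −0.83 on the others, the last with a foregut signal of 20.4, below the floor. In the same order, foregut over mid/hindgut was 1.23, 0.58 and −0.48, and mid/hindgut over early was −1.06, −0.05 and −0.35. Only the brightest, whose suffix marks it as shared between transcripts, passed 2-fold, and the gaps to PKNOX1 are for that probe set. TGIF2, a relative of TGIF1 that also represses SMAD signalling, had 486 in foregut, 341 in mid/hindgut and 324 in early endoderm, within 2-fold throughout.

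The IRX genes, which encode Iroquois factors of head and heart patterning, showed the widest differences among the other TALE genes. IRX1 had 308 in foregut, 0.816 in mid/hindgut and 145 in early endoderm, at least 13.9-fold higher in foregut than in mid/hindgut. IRX2 had 138, 10.5 and 152 in the same order, at least 6.25-fold higher in foregut than in mid/hindgut. IRX5 had 52.2 in foregut and was below the floor in the other tissues, at least 2.36-fold higher. Its other probe set had 33.5 in foregut and was also below the floor elsewhere, at least 1.51-fold higher. IRX4 had 11.1 in foregut, 46.1 in mid/hindgut and 23.3 in early endoderm, at least 2.08-fold lower in foregut than in mid/hindgut, and its other 2 probe sets were below the floor in all tissues.

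HOX proteins are the partners for which TALE cofactors are best known, and their genes mark position along the body axis. The array held 29 HOX genes, with 8 above the floor in foregut, 23 in mid/hindgut and 8 in early endoderm. In foregut over mid/hindgut 17 of 24 measured HOX genes were at least 2-fold lower and none was higher. The shares of all measured genes were 5.74% and 6.37%, and the median log2 difference of the HOX genes was −2.95. The extremes were HOXA7, at 10.1 in foregut and 2841 in mid/hindgut, at least 128-fold lower, and HOXA10, at 57.5 and 48.5, with a log2 difference of 0.25. Of the 9 HOX genes of groups 5 to 8, 1 was above the floor in foregut, 9 in mid/hindgut and 2 in early endoderm, while MEIS2 was highest in foregut and lowest in early endoderm. The HOX genes above the floor in foregut included HOXB1, at 498 in foregut, 461 in mid/hindgut and 444 in early endoderm, and HOXA3, at 112, 912 and 62.2. In groups 1 to 4 HOXA4, at 10.9 in foregut and 963 in mid/hindgut, had a log2 difference of −5.44, and in groups 9 to 13 HOXA9, at 6.67 and 739, had −5.06. MEIS1, PBX3 and TGIF1 were within 2-fold between foregut and mid/hindgut.

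**Figure D3:**
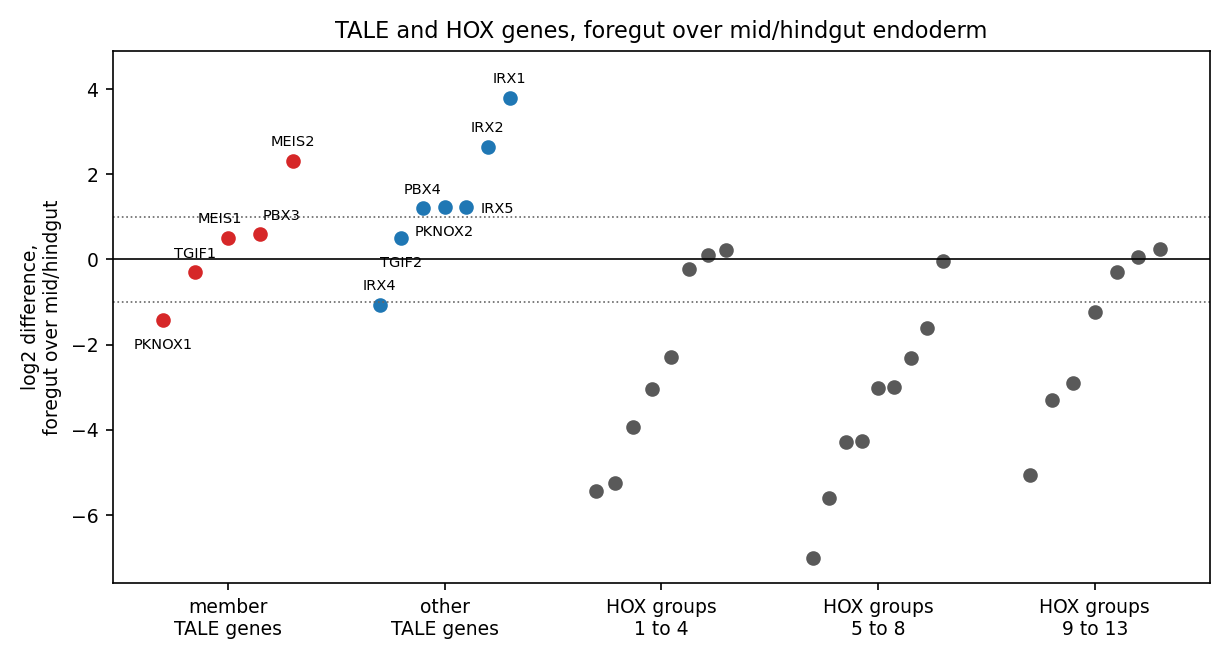
Log2 difference of foregut over mid/hindgut endoderm for the 5 member genes, 7 other TALE class genes and the measured HOX genes by paralog group. Each point is 1 gene and dotted lines mark 2-fold; member genes lie between −1.42 and 2.32, whereas 17 of 24 HOX genes lie below −1.

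Other homeodomain factors that bind PBX split by tissue as well. Of 5 measured in foregut over mid/hindgut 4 were at least 2-fold lower and 1 was higher, against 5.74% and 6.37% of all measured genes. CDX4, a posterior factor that activates HOX genes, was at 7.31 in foregut and 2739.5 in mid/hindgut, at least 124-fold lower. TLX1, a factor of spleen development, had 364 in foregut and 2.43 in mid/hindgut, at least 16.4-fold higher. MNX1, a factor of pancreas and motor neuron development, had the highest log2 difference of the list in mid/hindgut over early, 1.85, with a signal of 577 in mid/hindgut against 161 in early endoderm. TLX1 was below the floor in early endoderm as well, so it shared with MEIS2 a foregut signal above both other tissues. Of 10 general cofactors of PBX and MEIS measured, none passed 2-fold over early endoderm in either later tissue, against 10.6% of all measured genes higher and 6.49% lower in foregut and 8.12% and 5.13% in mid/hindgut. In foregut over mid/hindgut TLE3, a Groucho-type corepressor, was 2.43-fold higher on the brightest of its 5 probe sets. By the median over each gene's probe sets, none of 10 cofactors was at least 2-fold higher there, with 449 of 10919 genes. With scaling on hybridisation controls 2 of 11 were higher in foregut than in early endoderm and 5 of 11 higher in foregut than in mid/hindgut. That scaling also put 2465 of 11117 and 2289 of 11110 measured genes higher in these comparisons. The median log2 difference of these cofactors was 0.28 for foregut over early and −0.25 for mid/hindgut over early.

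Proteins that work with TGIF were compared next. In foregut over early, 10.6% of all measured genes were at least 2-fold higher and 6.49% were lower. Of 14 measured partners and SMAD genes, 1 was higher and 3 were lower there, with a median of −0.05. The higher one was SMAD3, an effector of Nodal and TGF-beta, at 200 in foregut, 577 in mid/hindgut and 95.1 in early endoderm. The lowest was SKIL, a SMAD corepressor, at 26.2, 62.6 and 91.3, which is 3.48-fold lower in foregut than in early endoderm. In mid/hindgut over early, 2 of the 14 were higher and 1 was lower, against 8.12% and 5.13% of all measured genes. These values are for the brightest probe set of each gene. By the median over each gene's probe sets, none of the 14 was higher and 2 were lower in foregut over early, with 770 and 604 of 10822 genes. In mid/hindgut over early 1 was higher and 1 lower by that median, with 620 and 407 of 10768 genes. TGIF1 itself was within 2-fold in all comparisons.

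The Nodal and TGF-beta pathway, on whose SMADs TGIF acts, had 3 of 15 measured genes higher and 7 lower in foregut over early. In mid/hindgut over early 2 were higher and 7 lower, and the medians were −0.89 and −0.86. The shares of all measured genes were 10.6% and 6.49% in foregut and 8.12% and 5.13% in mid/hindgut. CER1, a secreted Nodal and BMP inhibitor, was at 2.41 in foregut and 4.72 in mid/hindgut, both below the floor, and at 2641 in early endoderm, at least 119-fold lower in each later tissue. In foregut over mid/hindgut GSC, an organiser homeobox gene, had the highest log2 difference of this list, with 300.5 in foregut and 9.72 in mid/hindgut. TGFB2, a TGF-beta ligand, was 5.63-fold higher in foregut than in early endoderm. TGFBR3, a co-receptor, was at least 3.58-fold higher in mid/hindgut than in early endoderm. TGIF1 stayed within 1.21-fold of early endoderm in both tissues where these genes differed.

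Retinoic acid genes are of interest for MEIS2. Of 12 measured in foregut over mid/hindgut, 3 were at least 2-fold higher and 3 lower, against 6.37% and 5.74% of all measured genes. The median of the 12 was 0.19. CYP26C1, a retinoic acid degrading enzyme, was at 2235 in foregut and 34.4 in mid/hindgut, 65.0-fold higher. RBP4A, which carries retinol, was at 43.0 in foregut and 2119 in mid/hindgut, 49.3-fold lower. The median was −1.17 in foregut over early, where 4 genes were higher and 6 lower, against 10.6% and 6.49% of all measured genes. It was −1.18 in mid/hindgut over early, where 2 were higher and 7 lower, against 8.12% and 5.13%. In that comparison CYP26B1, a relative of CYP26C1, had 123 in mid/hindgut and 24.7 in early endoderm, and ALDH1A3, a retinoic acid synthesis enzyme, had 28.1 and 341. In foregut over mid/hindgut, genes of synthesis and of breakdown were found on both sides. The synthesis genes ALDH1A1, ALDH1A2, ALDH1A3 and RDH10 were all lower in both later tissues than in early endoderm. Their log2 differences ran from −0.75 to −3.22 in foregut and from −2.04 to −3.60 in mid/hindgut. Breakdown genes of the CYP26 family lay on both sides in these comparisons. No relation to MEIS2 was tested over 3 arrays.

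Markers of other cell types differed between the pools. For comparison, of 13008 named genes 9119 outside the members were above the floor on all 3 arrays, and 11136 on at least 1. The mesenchyme list of 17 genes had 13 above the floor in foregut, 12 in mid/hindgut and 9 in early endoderm, with summed signals of 4032, 1284 and 2852. COL1A2, a collagen gene, was the brightest of it in all 3 tissues, at 1011, 312 and 1957. Of 10 endothelium genes, 10 were above it in foregut, 10 in mid/hindgut and 5 in early endoderm, with summed signals of 7491, 9842 and 319. FOXF1, a defining gene of gut mesenchyme, was at 21.1 in foregut, 1.99 in mid/hindgut and 1.32 in early endoderm. Its foregut signal was just below the floor of 22.1, and the other 2 were far below it. HAND1, of lateral mesoderm, was below the floor in all 3 tissues, at 1.68, 4.75 and 1.56. Other mesenchyme genes were higher in foregut. Of 15 measured in foregut over early, 8 were at least 2-fold higher and 1 was lower, against 10.6% and 6.49% of all measured genes. Over mid/hindgut, 8 of 15 were also higher in foregut and 1 was lower, against 6.37% and 5.74%. The median log2 difference of the list was 1.34 in both comparisons. CDH5, which defines endothelium, was at 2535 in foregut, 4331 in mid/hindgut and 5.16 in early endoderm, the last below the floor.

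Of 9 neural ectoderm genes 7, 7 and 6 were above the floor in foregut, mid/hindgut and early endoderm, with sums of 4340.3, 626 and 3858, and of 7 neural crest genes 6, 4 and 4, with sums of 632, 478 and 992. Blood genes summed to 1517, 3451 and 196, paraxial mesoderm to 314, 691 and 1354, cardiac genes to 2745, 1253 and 1071, and notochord genes to 713, 2852 and 4171, all in that order. Single genes weighed heavily in some sums. NKX2-5, at 1630, made up most of the cardiac sum in foregut, and CA2, at 943, most of the blood sum there. Of 8 measured cardiac genes, 2 were at least 2-fold higher and 1 was lower in foregut than in early endoderm, against 10.6% and 6.49% of all measured genes. The endoderm list itself had 8, 7 and 7 of 9 genes above the floor, with sums of 14723, 17880 and 20012. The brightest markers included OTX2, of the anterior neural plate, at 3110.4 in foregut, 29.8 in mid/hindgut and 2101 in early endoderm, and TBXT, of the notochord and primitive streak, at 98.2, 2420.3 and 3598. OTX2 alone made up most of the neural ectoderm sum in foregut and in early endoderm. TBXT alone made up most of the notochord sum in mid/hindgut and in early endoderm, where SHH and NOG of that list were below the floor. NEUROG1 and FOXD3, which define neural precursors and early neural crest, were below the floor throughout. Of the neural ectoderm and neural crest lists, 7 of 9 and 6 of 7 genes were above it in foregut. Since most named genes were above the floor, these counts alone do not set the lists apart. Those above it in foregut included SOX3 at 596, SOX2 at 72.2 and SOX10 at 59.2. NEUROG2 was above the floor only in early endoderm, at 31.3. Of 6 measured neural crest genes, 4 were at least 2-fold higher and 1 was lower in foregut than in early endoderm. SNAI2 alone, at 740, made up most of the neural crest sum in early endoderm. Of neural ectoderm genes, 2 of 8 were higher and 2 lower in that comparison. The shares of all measured genes there were 10.6% higher and 6.49% lower. In foregut over mid/hindgut, 5 of 7 measured neural ectoderm genes were at least 2-fold higher and 1 was lower, with a median of 1.19. Of 6 neural crest genes, 2 were higher and none was lower in foregut than in mid/hindgut. The shares of all measured genes in that comparison were 6.37% and 5.74%. The part of other cell types in the MEIS and PKNOX1 differences was not tested.

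Genes with the pattern most like that of a member were found by distance between pairs of log2 differences, foregut over early and mid/hindgut over early, among 9119 genes above the floor on all arrays. Since 3 arrays give only 2 independent differences per gene, closeness is common. For MEIS1 the nearest 5 were SCHIP1, ENG, ITPR3, PPM1E and IGF1R, at distances from 0.01 to 0.12, and 20 genes lay within 0.25. ENG encodes endoglin, a TGF-beta co-receptor of endothelium. For MEIS2 they were MAPK13, NREP, CDHR3, TMEFF2 and COL24A1, from 0.11 to 0.23, with 6 genes within 0.25. For PKNOX1 they were STK17A, FBP1, RIPK4, FAM219A and ATXN3, from 0.04 to 0.13, with 10 genes within 0.25. PBX3 and TGIF1, within 2-fold throughout, were not compared in this way.

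In the current chicken assembly, GRCg7b, the 5 genes lie on 5 different chromosomes. Of the 10 protein-coding genes that flank them, 9 were on the array under a name. SPRED2, an inhibitor of ERK signalling next to MEIS1, was at 208 in foregut and 437 in early endoderm, a log2 difference of −1.07 and opposite to that of MEIS1. No other flanking gene passed 2-fold in foregut over early, and none did in foregut over mid/hindgut. In mid/hindgut over early 1 did, CYLY next to PKNOX1, at 51.5 and below the floor.

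**Figure D4:**
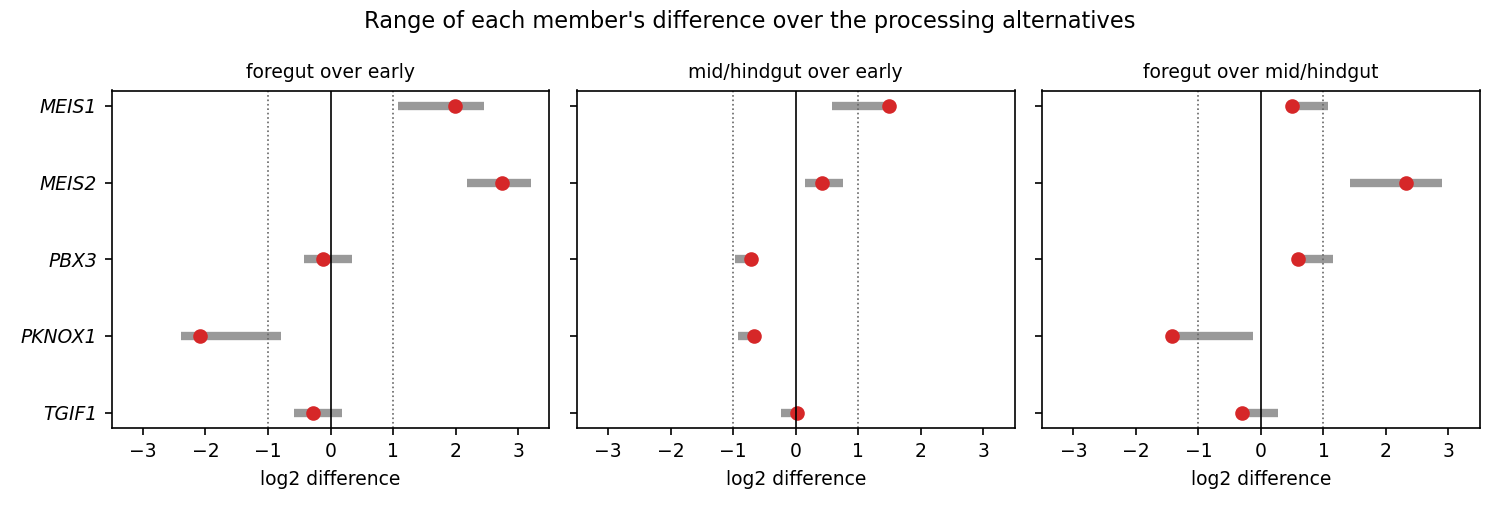
Log2 difference of each member gene in the 3 comparisons as reported (red points), with the range over the processing alternatives (grey bars) and dotted lines at 2-fold. MEIS1 and MEIS2 stay above 2-fold in foregut over early, from 1.08 to 2.46 and from 2.18 to 3.21, and PKNOX1 ranges from −2.38 to −0.79.

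Among the settings tried, the call of PKNOX1 in foregut ended with a floor at the 60th percentile, which at 60.5 units lies above its foregut signal and gave −0.79 in log2 over early endoderm and −0.13 over mid/hindgut. The same floor took MEIS1 to 0.58 in mid/hindgut over early. Scaling on hybridisation controls took PKNOX1 to −0.85 in foregut over mid/hindgut, and MEIS1 and PBX3 to 1.07 and 1.16, past 2-fold, while it moved the median of all genes to 0.56. MEIS2 and MEIS1 were at least 2-fold higher in foregut than in early endoderm under each of the 11 alternatives of scaling, floor and probe set.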

How the data were processed

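RNA was labelled by the submitters from 5 µg per pool, each gathered every 4 hours over 1 day, per the labels' protocols. The authors deposited MAS5 signal intensity per probe set on a linear scale, per the submitters' processing notes. MAS5's version is not given in the sources used here, nor are its settings. Detection calls were not used. Of 37693 chicken probe sets, 27166 carried 1 gene in the platform annotation, and 177 on the array carried several and were left out; symbols were updated through gene identifiers to the RefSeq table of GRCg7b, which held all 8 member probe sets. No sequence or coordinate is printed.

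Arrays were scaled to the mean of their trimmed means (2% off each end), since these differed by over 10%. The floor was set at the 40th percentile of all chicken signals together. The brightest probe set by mean log2 signal stood for each gene, and genes above the floor on either array counted as measured. No statistical test was possible. Members and 18 gene lists were chosen with earlier results of these data known. Named genes are every TALE gene, the highest and lowest member of each pathway list if 2-fold apart and the brightest marker per cell type list and tissue (a part of both is printed) and the 5 nearest genes per member; any other was named after its values were seen. The alternatives were no scaling, quantile, median, hybridisation control and ribosomal protein scaling, floors at the 20th and 60th percentile, no floor, the median over probe sets, unshared probe sets and 3-fold; a further floor, from the viral signals' 95th percentile, was chosen after seeing the data. The steps ran in Python 3.11.15 with pandas 2.3.3 and were tested on simulated data.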

Additional observations from a re-analysis of the deposited data

Results flagged for a closer look

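IRX1, a TALE gene outside the HOX cofactors, had opposite differences in the later tissues, at 1.09 in log2 for foregut over early and −2.71 for mid/hindgut over early. Its mid/hindgut signal was below the floor, so the second value is a bound. Both share the early endoderm array, each tissue has 1 array, and the difference between them was not tested.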

How the results depend on the processing

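Counts of member genes stayed within 1.5 times of the reported ones in 65 of 72 cases. With scaling on hybridisation controls, which moved the median of all genes in foregut over mid/hindgut to 0.56 in log2, 3 genes in place of 1 were higher and 0 in place of 1 lower there. With a floor at the 60th percentile, 0 genes in place of 1 were lower in foregut than in early endoderm, 0 lower in foregut than in mid/hindgut, and 0 higher in mid/hindgut than in early endoderm. With 3-fold in place of 2-fold, 0 were higher in mid/hindgut than in early endoderm and 0 lower in foregut than in mid/hindgut. No member at least 2-fold apart changed direction. Of 162 log2 differences of single members, 145 moved by less than the technical standard deviation. PBX3 has no unshared probe set and gave no value in that setting. All genes in foregut over early split 1145 higher and 701 lower as reported, 742 and 1210 without scaling and 2465 and 380 with hybridisation control scaling. In foregut over mid/hindgut the split was 695 and 626 as reported and 2289 and 252 with that scaling, and in mid/hindgut over early 872 and 551 as reported and 629 and 849 without scaling. Signals near the floor, as for PKNOX1 in foregut and MEIS1 in early endoderm, limit those folds. No paired analysis was possible because each tissue has 1 array.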
